A study of Mus musculus with 3 samples.

Results

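The ATP-binding cassette (ABC) genes were chosen by name: every probe set of the array whose single annotated symbol was Abca, Abcb, Abcc, Abcd, Abce, Abcf or Abcg followed by digits, with or without a letter, Abca3 left out. This gave 47 genes with 1 probe set each, among 22180 named genes and 41345 probe sets. There were 15 genes of subfamily A, 9 of B, 10 of C, 3 of D, 1 of E, 3 of F and 6 of G.

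RNA was measured on 3 mouse arrays, 1 per group, with no replicates. The first group was FULA 1, a mouse lung adenocarcinoma line grown in DMEM with 10% fetal bovine serum. The second was lung of FVB mice, an inbred strain prone to lung tumours, 1 week after an intraperitoneal injection of urethane, a carcinogen that gives lung adenomas in mice. The third was FVB lung after a saline injection. The sources used here do not give the number or age of the mice behind a lung array, nor when the saline lung was taken.

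ABC proteins share a domain that binds and hydrolyses ATP. In most of them it drives the movement of a lipid, drug, peptide or conjugate across a membrane, while members of subfamilies E and F have no membrane domain and act on ribosomes. In the lung Abca1 and Abcg1 are known for handing cholesterol from macrophages to apolipoproteins, and the drug efflux pumps of the Abcb1, Abcc and Abcg2 type are known from epithelial and endothelial barriers and from tumours that resist chemotherapy.

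The deposited log2 values did not lie on one scale, with medians over all probe sets of 4.96 on FULA 1, 1.22 on the urethane lung and 0.08 on the saline lung. They were therefore quantile-normalized over all probe sets, and each value was also given as a percentile rank on its own array, which no rescaling changes. Ranks and values are compared between arrays for one gene, never between genes, because probe sets differ in brightness. Olfactory receptor genes, 1105 in number, are mostly silent outside the nose, and their 95th percentile on each array was taken as the background mark: 1.96 on FULA 1, 2.44 on the urethane lung and 2.46 on the saline lung (normalized log2). To be counted as higher or lower, a gene had to differ 2-fold or more and reach the median of all gene values (2.37) on the brighter array. Where the lower value lay below its mark, "at least" gives the difference with the mark in its place. No difference can be set against a replicate spread, so every statement concerns these arrays and not the conditions in general.

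The labelled sources were checked by markers. All 8 alveolar type II markers lay above the mark on each lung, with a median percentile rank of 97.0 on the urethane lung and 97.3 on the saline lung. On FULA 1 their median rank was 51.3 and 6 of 8 lay above the mark, with Sftpd and Lamp3 below it. All 5 pan-epithelial markers lay above the mark on FULA 1. Of these Krt8, Krt18 and Cdh1 were higher than in each lung, Cldn7 was lower than in each, and Epcam was lower than in the urethane lung. None of 6 pan-leukocyte and lymphocyte markers passed the mark on FULA 1, among them Ptprc and Cd3e. There 4 of 7 alveolar macrophage and 3 of 8 monocyte and interstitial macrophage markers did pass it, with Pparg at 5.81, Mrc1 at 5.24 and Cd14 at 4.79.

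More ABC genes, and more named genes at large, passed the background mark in the cell line, where it was lower, than in either lung. The count was 29 of 47 on FULA 1, 19 on the urethane lung and 18 on the saline lung, or 61.7%, 40.4% and 38.3%. Over all named genes the shares were 58.2%, 48.9% and 49.5%. Above the mark on all 3 arrays were 14 genes: Abca1, Abca7, Abcb10, Abcc1, Abcc3, Abcc6, Abcc8, Abcc10, Abcd3, Abce1, Abcf1, Abcf2, Abcf3 and Abcg1. On FULA 1 and neither lung 13 were above it: Abca5, Abca8b, Abca15, Abcb1a, Abcb1b, Abcb4, Abcb6, Abcb8, Abcb9, Abcc2, Abcc4, Abcd4 and Abcg2. In the reverse state, above it on both lungs and not on FULA 1, were Abca8a, Abcc9 and Abcd2. Abca2 passed the mark on FULA 1 and the urethane lung, Abcc5 on FULA 1 and the saline lung, and Abcg4 on the urethane lung alone. These states depend on the lower mark of FULA 1. The FULA 1 values of Abca8b (1.96), Abca15 (2.02), Abcc2 (2.09) and Abcb9 (2.12) would lie below the mark of either lung. So would those of Abcc6 (2.12) and Abcc8 (2.15). For these genes, passing the mark on FULA 1 is not by itself a higher level than in the lungs.

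A further 14 lay below the mark everywhere. They included the retinoid transporter of photoreceptors Abca4, the lipid transporter of keratinocytes Abca12, the bile salt pump Abcb11, and Abcg5 and Abcg8, which form the sterol pump of liver and gut. The others were Abca6, Abca9, Abca13, Abca14, Abca16, Abca17, Abcb5, Abcc12 and Abcg3. Their differences are given no size.

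**Figure D1:**
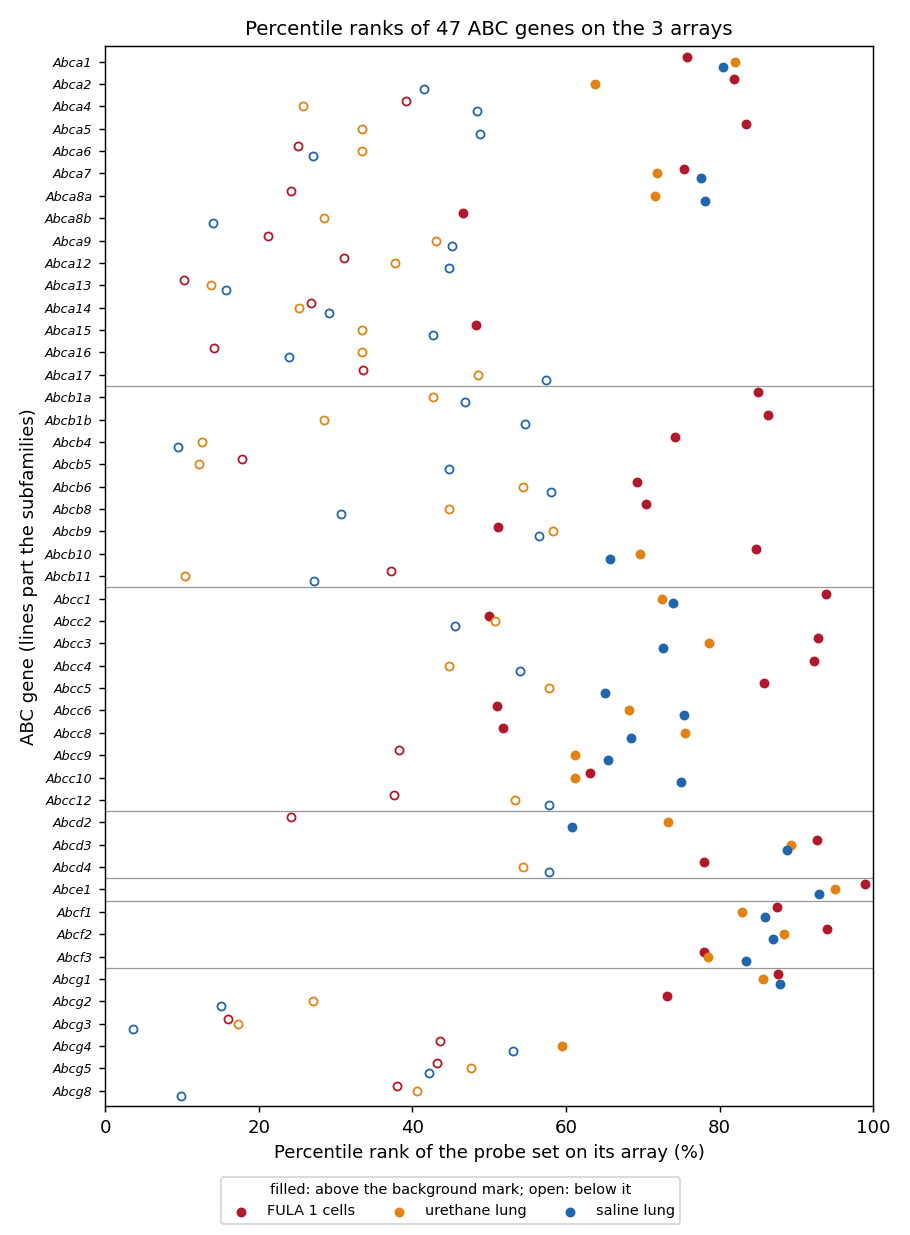
Percentile rank (x axis, %) of each of the 47 ABC genes on the FULA 1, urethane lung and saline lung arrays; filled points lie above the background mark of their array and open points below it. On FULA 1 Abcb1b and Abcc4 sit at 86.3 and 92.3, far right of both lungs, whereas Abca8a and Abcd2 sit at 24.2 each, left of both lungs.

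FULA 1 cells had more ABC genes higher than lower against either lung, most of them pumps that export drugs and conjugates or genes of subfamily B. Against the urethane lung 15 of 47 (31.9%) were higher and 3 lower, with 13.2% higher and 11.6% lower among all named genes. Against the saline lung 15 were higher and 4 lower, with 13.9% and 13.5% among all named genes. The 15 higher genes were the same in both comparisons, which share the FULA 1 array. Over all named genes, 10.9% were higher than both lungs. The 15 genes were Abca2, Abca5, Abcb1a, Abcb1b, Abcb4, Abcb8, Abcb10, Abcc1, Abcc3, Abcc4, Abcc5, Abcd4, Abce1, Abcf2 and Abcg2. Of 9 genes listed as multidrug and conjugate efflux pumps, 7 were among them: Abcb1a, Abcb1b, Abcc1, Abcc3, Abcc4, Abcc5 and Abcg2. That list was chosen with earlier results of these data known, so this count is a description. It leaves out Abcc6, which was lower than in the saline lung, and Abcb5 and Abcc12, which lay below the mark on all arrays. The median difference of the 9 listed pumps was 1.94 to the urethane lung and 2.14 to the saline lung (log2). Lung values below the mark entered these medians unchanged, among them those of Abcb1a, Abcb1b, Abcc2, Abcc4 and Abcg2 on both lungs.

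The mouse has a pair of genes for P-glycoprotein, the pump that expels many hydrophobic drugs. Abcb1a had 4.22 on FULA 1, 1.87 on the urethane lung and 1.97 on the saline lung (normalized log2), and only the FULA 1 value was above the mark. Its difference was 2.35 to the urethane lung (at least 1.78) and 2.25 to the saline lung (at least 1.76). Abcb1b had 4.39 on FULA 1, 1.49 on the urethane lung and 2.25 on the saline lung, higher in FULA 1 by at least 1.94 and 1.92. Its percentile rank was 86.3 on FULA 1, 28.6 on the urethane lung and 54.7 on the saline lung. These are close relatives in sequence, so probes may take up RNA of both and their separate values are uncertain.

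Among the multidrug resistance-associated proteins of subfamily C, Abcc1 exports glutathione conjugates such as leukotriene C. It had 5.70 on FULA 1, 3.16 on the urethane lung and 3.25 on the saline lung, all above the mark. This was 5.80-fold higher than in the urethane lung and 5.44-fold higher than in the saline lung. Abcc3, an exporter of glucuronides and bile salts, had 5.45 on FULA 1, 3.61 on the urethane lung and 3.17 on the saline lung, or 3.59-fold and 4.86-fold higher in FULA 1. Both lungs lay well under the cell line for each of these genes, and no lung value reached a percentile rank of 90.

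Abcc4 exports cyclic nucleotides and prostaglandins, and on the quantile-normalized scale its gap to each lung was the widest among the ABC genes. With FULA 1 quantiles as the target Abcb4 had the wider gap to the saline lung, 4.29 against 4.08 for Abcc4, with lung values below background for both. Abcc4 stood at 5.37 on FULA 1, 1.92 on the urethane lung and 2.23 on the saline lung. Its rank was 92.3, 44.8 and 54.1 on these arrays. With both lungs below the mark it was higher by at least 2.93 than in the urethane lung and by at least 2.91 than in the saline lung. Abcc5, also an exporter of cyclic nucleotides, had 4.31 on FULA 1, 2.37 on the urethane lung and 2.73 on the saline lung. It was higher by at least 1.87 than in the urethane lung and by 1.58 than in the saline lung.

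Abcg2, the breast cancer resistance protein, had 3.20 on FULA 1, 1.46 on the urethane lung and 1.11 on the saline lung. Its rank was 73.2 on FULA 1, 27.1 on the urethane lung and 15.1 on the saline lung. Both lung values were below background, and with the mark in their place the gap was at least 0.76 and 0.74, under 2-fold. Abcc2, the conjugate pump of the bile canaliculus, showed no such gap, with 2.09 on FULA 1, 2.11 on the urethane lung and 1.94 on the saline lung, of which only the FULA 1 value lay above its mark. Abcc10 had 2.62 on FULA 1, 2.54 on the urethane lung and 3.34 on the saline lung.

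Some genes of glutathione supply were higher in FULA 1. In the list of regulators of drug efflux and glutathione supply, 3 of 9 genes (33.3%) were at least 2-fold higher than in either lung. None was lower. Over all named genes 10.9% were higher than in both lungs. The 3 genes were Gclm, Gss and Gsr, at 1.58, 1.59 and 1.73 above the saline lung (log2 difference). The median of the list was 0.37 against the saline lung, next to -0.11 over all genes. Nfe2l2, the transcription factor that controls glutathione genes, had 7.73 on FULA 1, 7.09 on the urethane lung and 7.36 on the saline lung. The nuclear receptors Nr1i2 and Nr1i3, which induce drug pumps in liver and gut, were below background on both lungs. On FULA 1 they were just above its lower mark, at 2.03 and 2.24. The lung values were 2.01 (urethane) and 2.21 (saline) for Nr1i2, and 1.89 and 1.97 for Nr1i3.

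**Figure D2:**
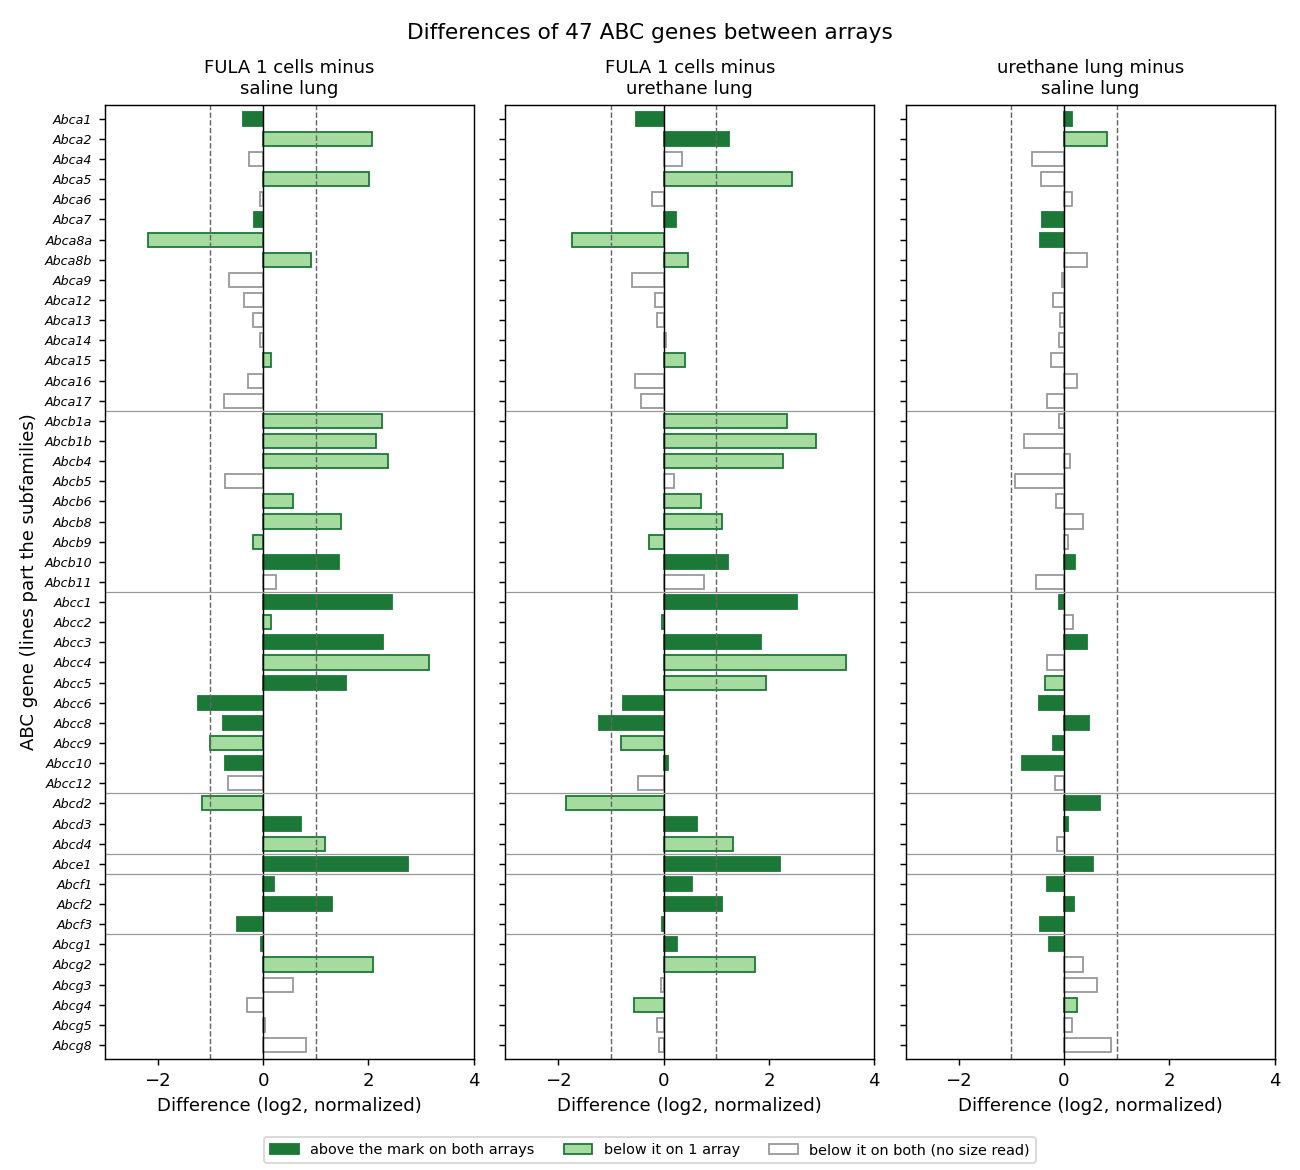
Differences between arrays (x axis, log2 of normalized values) for each ABC gene: FULA 1 minus saline lung, FULA 1 minus urethane lung, and urethane lung minus saline lung; dashed lines mark 2-fold, and fill shows how many arrays of the pair lay above the background mark. Bars past the dashed lines are found in both FULA 1 panels, led by Abcc4 at 3.14 and 3.45, and none in the panel of the lungs.

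Other genes of subfamily B were higher too. Abcb4, which flips phosphatidylcholine into bile, had 3.27 on FULA 1, 1.01 on the urethane lung and 0.89 on the saline lung. It was above the mark on FULA 1 alone, and with the mark in place of the lung values its gap was at least 0.82 to the urethane lung and 0.80 to the saline lung, under 2-fold. The mitochondrial genes Abcb8 and Abcb10 were both counted as higher. Abcb10, needed for haem synthesis in red cell precursors, had 4.20 on FULA 1, 2.97 on the urethane lung and 2.77 on the saline lung, all above the mark. Abcb8 had 3.03, 1.92 and 1.55 on these arrays, higher by at least 0.58 and 0.56, again under 2-fold once the marks stand in. Abcb6, a porphyrin transporter, differed by 0.71 from the urethane lung (at least 0.50) and 0.56 from the saline lung (at least 0.48). Abcb9, a lysosomal peptide transporter, was not higher, with 2.12 on FULA 1, 2.40 on the urethane lung and 2.32 on the saline lung. It passed the mark on FULA 1 alone, where the mark was lower.

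Subfamily B as a whole had a median difference of 1.11 to the urethane lung and 1.43 to the saline lung over its 9 genes. Under the alternatives other than the deposited scale it stayed above zero, from 0.17 to 1.70 and from 0.20 to 1.97. After quantile normalization the median over all genes was -0.08 and -0.11. Subfamily A had medians of -0.12 and -0.19 over 15 genes, and C had 0.02 and -0.25 over 10 genes, where 4 higher genes stood beside lower ones. For G the medians were -0.07 and 0.30 over 6 genes. Many of these genes lay below the mark on both arrays compared. In A 8 of 15 did against each lung, and in G 3 of 6 against the urethane lung and 4 against the saline lung. In B it was 2 of 9 and in C 1 of 10 against each lung. The smaller medians, of A, C and G, changed sign with the scaling. After lowess A came to 0.07 and 0.04, C to 0.05 against the saline lung and G to 0.14 against the urethane lung. After the median shift, against the saline lung, C came to 0.13 and G to -0.14. With values held at the mark C came to -0.14 against the urethane lung and G to -0.50 against the saline lung, where the median of all genes was -0.50 too.

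Around the mitochondrial transporters, mitochondrial iron, haem and iron-sulphur cluster genes had shares near those of all named genes against the urethane lung. Of 8 measured genes, FULA 1 had 1 higher and 1 lower than the urethane lung (12.5% each, next to 13.2% and 11.6%). Against the saline lung 1 was higher and 2 lower (12.5% and 25%, next to 13.9% and 13.5%). Slc25a37, the mitochondrial iron importer, had 5.26 on FULA 1, 3.87 on the urethane lung and 3.22 on the saline lung. Alas1, the first enzyme of haem synthesis, had 3.79 on FULA 1, 6.93 on the urethane lung and 6.32 on the saline lung. Fech, the last enzyme of that pathway, differed by -0.52 from the urethane lung and by -0.65 from the saline lung.

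A run of 3 neighbouring genes of subfamily B was counted as higher throughout. In the RefSeq gene order Abcb1a, Abcb1b and Abcb4 follow one another on chromosome 5. Another run, on chromosome 11, holds Abca8b, Abca8a, Abca9, Abca6 and Abca5, and there the neighbours went different ways. Abca5, a lipid transporter of lysosomes and endosomes, had 4.05 on FULA 1, 1.62 on the urethane lung and 2.04 on the saline lung, higher by at least 1.60 and 1.58. Abca8a had 1.36 on FULA 1, 3.10 on the urethane lung and 3.56 on the saline lung, lower by at least 1.14 and 1.60. Abca6 and Abca9 lay below the mark on all arrays. Abca8b stood at 1.96 on FULA 1, barely above the mark, and below it on both lungs. Abca8a and Abca8b are close relatives, and their probes may not separate them.

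Promoter windows of 5 genes of these runs are shown because the neighbours differ between the arrays as described. Each window runs from 250 bases before to 50 bases after the RefSeq start (build GRCm38.p6). Sequences are 5′ to 3′ along the gene, and capitals mark matches on either strand to 5 motifs: GC box GGGCGG, the CCAAT box, E-box CACGTG, antioxidant response element core TGACNNNGC and AP-1 site TGANTCA.
Abcb1a (chr5:8566841-8567140, plus strand): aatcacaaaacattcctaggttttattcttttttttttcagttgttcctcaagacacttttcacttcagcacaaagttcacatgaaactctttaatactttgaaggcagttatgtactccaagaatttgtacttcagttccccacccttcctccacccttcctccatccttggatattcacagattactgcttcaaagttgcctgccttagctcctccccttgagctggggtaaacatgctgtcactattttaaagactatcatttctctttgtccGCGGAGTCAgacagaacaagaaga
Abcb1b (chr5:8797897-8798196, plus strand): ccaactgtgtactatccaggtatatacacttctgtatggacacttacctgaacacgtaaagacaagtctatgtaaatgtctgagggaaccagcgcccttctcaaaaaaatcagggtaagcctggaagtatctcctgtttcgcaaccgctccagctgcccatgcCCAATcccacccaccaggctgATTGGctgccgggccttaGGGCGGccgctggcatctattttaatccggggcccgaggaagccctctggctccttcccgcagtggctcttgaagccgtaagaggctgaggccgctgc
Abcb4 (chr5:8893471-8893770, plus strand): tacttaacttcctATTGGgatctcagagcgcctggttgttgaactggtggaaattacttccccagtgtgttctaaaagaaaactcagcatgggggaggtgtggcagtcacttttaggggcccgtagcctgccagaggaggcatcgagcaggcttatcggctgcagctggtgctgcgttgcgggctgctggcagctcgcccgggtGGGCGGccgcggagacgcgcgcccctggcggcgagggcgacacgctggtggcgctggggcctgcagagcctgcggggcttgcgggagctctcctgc
Abca5 (chr11:110337667-110337966, minus strand): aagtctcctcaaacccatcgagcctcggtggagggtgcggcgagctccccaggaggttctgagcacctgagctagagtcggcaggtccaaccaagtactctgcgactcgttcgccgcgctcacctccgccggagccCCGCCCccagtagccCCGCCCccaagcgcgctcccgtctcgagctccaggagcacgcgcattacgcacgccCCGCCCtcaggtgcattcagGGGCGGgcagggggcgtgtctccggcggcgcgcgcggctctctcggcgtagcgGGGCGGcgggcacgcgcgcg
Abca8a (chr11:110095888-110096187, minus strand): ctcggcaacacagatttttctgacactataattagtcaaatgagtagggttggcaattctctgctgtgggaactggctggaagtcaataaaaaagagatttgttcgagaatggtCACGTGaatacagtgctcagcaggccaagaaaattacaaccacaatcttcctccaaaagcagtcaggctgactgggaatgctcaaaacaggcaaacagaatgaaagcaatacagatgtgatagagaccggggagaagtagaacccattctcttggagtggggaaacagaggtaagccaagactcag

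The letters of these windows differ between neighbours. The Abca5 window holds 5 GC boxes and is 72.3% G or C, while the Abca8a window holds none, has 1 E-box and is 44.3% G or C. Abcb1b and Abcb4 have 1 GC box each and are 55.0% and 64.0% G or C. Abcb1a, also counted as higher in FULA 1, has no GC box and 1 antioxidant response element core. Its window is 40.3% G or C, lower than that of Abca8a. CCAAT occurs 2 times in Abcb1b and 1 time in Abcb4. Across the 44 windows of 37 ABC genes in the table, 45.5% held a GC box and 15.9% an antioxidant response element core. The shares were 35.7% and 12.4% over all 32851 windows. CCAAT was found in 36.4% against 37.4%, the E-box in 13.6% against 7.15% and the AP-1 site in 0 of 44 against 7.81%.

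The 15 windows of 11 genes that were higher in FULA 1 than in the saline lung had a median G and C content of 62.0%. It was 54.7% in the 27 windows of genes counted as neither higher nor lower, and 52.7% over all windows. Some genes have several windows, and an AP-1 match could overlap an antioxidant match. A match in these letters is a description and shows no binding.

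The ABC proteins of translation were above the mark on all 3 arrays. Abce1, which splits ribosomes after termination, had 8.24 on FULA 1, 6.04 on the urethane lung and 5.50 on the saline lung. It was 4.61-fold higher than in the urethane lung and 6.72-fold higher than in the saline lung. Its percentile rank was 98.9 on FULA 1 and 93.0 on the saline lung, high on both. Abcf2 had 5.77 on FULA 1, 4.66 on the urethane lung and 4.47 on the saline lung, 2.17-fold and 2.47-fold higher. After lowess its difference to the urethane lung was 0.77, under 2-fold. Abcf1, which binds initiation factor eIF-2, differed by 0.53 and 0.21, and Abcf3 by -0.04 and -0.49.

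Of 5 measured genes of ribosome recycling and the GCN2 arm, 3 (60%) were at least 2-fold higher in FULA 1 than in each lung. Over all named genes 10.9% were higher than in both lungs. The 3 genes were the release factors Etf1 and Gspt1, and Eif6, at 1.26, 1.02 and 1.25 above the saline lung. Pelo, a partner of Abce1 in ribosome rescue, had 2.22 on FULA 1, 1.97 on the urethane lung and 2.28 on the saline lung. It passed only the lower mark of FULA 1.

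The sterol and lipid transporters that could be measured included both cholesterol exporters of macrophages. Abca1, which loads apolipoprotein A-I with cholesterol, had 3.39 on FULA 1, 3.92 on the urethane lung and 3.76 on the saline lung. Abcg1, which passes cholesterol to high-density lipoprotein, had 4.55, 4.30 and 4.59 on these arrays, with ranks between 85.7 and 87.8. Abca7, a phospholipid transporter linked to phagocytosis, had 3.36, 3.12 and 3.53. None of these 3 differed by 2-fold. Of the 10 genes on the list, Abca2 and Abca5 (20%) were counted as higher in FULA 1 than in each lung and none as lower, next to 13.2% and 11.6% of all named genes against the urethane lung. Against the saline lung 5 of the 10 lay below the mark on both arrays, and against the urethane lung 4 did, and could not be compared.

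Abca2, a lysosomal lipid transporter best known from oligodendrocytes, was higher in the cell line than in each lung. It had 3.90 on FULA 1, 2.66 on the urethane lung and 1.83 on the saline lung, of which only the saline value lay below the mark. It was higher in FULA 1 by 1.24 than in the urethane lung (0.91 after lowess, under 2-fold) and by at least 1.43 than in the saline lung. Abcg4, a sterol transporter of the nervous system, was above the mark on the urethane lung alone, at 2.45 against a mark of 2.44.

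The acceptors and regulators of sterol efflux were more often lower in FULA 1. Of 11 measured genes, 6 (54.5%) were at least 2-fold lower and 2 (18.2%) higher than in each lung. Over all named genes 9.25% were lower and 10.9% higher than in both lungs. The median difference of the 11 genes was -1.14 to the saline lung. Nr1h3, the liver X receptor that induces Abca1 and Abcg1, had 2.98 on FULA 1, 4.10 on the urethane lung and 4.38 on the saline lung. Pltp, which transfers phospholipids between lipoproteins, differed by -3.39 from the urethane lung and -3.34 from the saline lung, and Mylip, a degrader of the LDL receptor, by -3.38 and -3.74. Srebf2, which switches on cholesterol synthesis, had 7.58 on FULA 1, 4.94 on the urethane lung and 4.63 on the saline lung. The lysosomal lipase Lipa was higher by 1.99 and 2.51.

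In subfamily D, whose members move acyl chains and cofactors across peroxisomal and lysosomal membranes, the 3 genes differed in pattern. Abcd2, a peroxisomal transporter of very long chain fatty acids, had 1.36 on FULA 1, 3.21 on the urethane lung and 2.52 on the saline lung. It was lower by at least 1.24 than in the urethane lung and at least 0.56 than in the saline lung. Abcd3, which imports branched acids and bile acid precursors, had 5.43 on FULA 1, 4.80 on the urethane lung and 4.72 on the saline lung, less than 2-fold apart. Abcd4, which acts in the export of cobalamin from lysosomes, had 3.56, 2.24 and 2.37, higher in FULA 1 by at least 1.11 and 1.09.

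Peroxisome genes also went both ways. Of 8 measured, 2 were higher and 2 lower in FULA 1 than in the urethane lung (25% each, next to 13.2% and 11.6% of all named genes). Against the saline lung 3 were higher and 1 lower (37.5% and 12.5%, next to 13.9% and 13.5%). Acaa1a, the thiolase of peroxisomal beta-oxidation, differed by -1.50 and -1.86. Pex14, a part of the import pore, was below background on each lung, and with the mark in place it was higher by at least 0.77 and 0.75, under 2-fold. Pex3, which acts in the insertion of peroxisomal membrane proteins, had 4.47 on FULA 1, 4.17 on the urethane lung and 3.12 on the saline lung. It was also 2-fold higher in the urethane lung than in the saline lung, by 1.05.

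Lower in FULA 1 were 5 of 47 genes, counted against one lung or both, next to 3524 of 22180 named genes. Abca8a and Abcd2 (4.26%) were lower than in each lung, next to 9.25% of all named genes. With the mark in place Abcd2 was lower than in the saline lung by at least 0.56, under 2-fold. Abcc6, known from the disease pseudoxanthoma elasticum, had 2.12 on FULA 1, 2.89 on the urethane lung and 3.36 on the saline lung, lower by 1.24 than in the saline lung. The sulphonylurea receptors Abcc8 and Abcc9 form potassium channels with Kcnj11 and Kcnj8. Abcc8 had 2.15 on FULA 1, 3.37 on the urethane lung and 2.91 on the saline lung, lower by 1.23 than in the urethane lung. Abcc9 had 1.74, 2.54 and 2.75, lower by 1.01 than in the saline lung (at least 0.78), which is close to the threshold. Of the channel pores, Kcnj11 was above the mark on the urethane lung alone, with 1.84 on FULA 1, 2.78 on the urethane lung and 2.06 on the saline lung. Its difference from the urethane lung was -0.93 (-0.82 with the mark in place), under 2-fold. Kcnj8 had 2.16 on FULA 1, 2.34 on the urethane lung and 2.41 on the saline lung. It passed only the lower mark of FULA 1.

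Markers of other lung cell types were lower in FULA 1 as well. In FULA 1, 7 of 8 endothelial markers (87.5%) were at least 2-fold lower than in the saline lung. So were 6 of 8 markers each (75%) of pericytes with smooth muscle and of fibroblasts, next to 13.5% of all named genes. The summed linear level was 43.8 on FULA 1, 520.1 on the urethane lung and 614.1 on the saline lung for endothelial markers. For pericytes with smooth muscle it was 36.6, 151.9 and 183.9, and for fibroblasts 41.4, 460.5 and 442.4. On FULA 1, 4 of 8 endothelial, 4 of 8 pericyte and smooth muscle and 3 of 8 fibroblast markers still lay above the mark, such as Ptprb at 4.03, Acta2 at 3.01 and Pdgfra at 3.86. Below it on FULA 1 were, among others, Cldn5, Tek, Pdgfrb, Tagln, Dcn and Col1a2. Macrophage markers, of cells that use Abca1 and Abcg1, did not share one direction: the summed level of 7 alveolar macrophage markers was 112.8 on FULA 1, 183.8 on the urethane lung and 232.9 on the saline lung, and Pparg and Mrc1 were higher in FULA 1. The part of these cell types in the ABC differences was not tested, and in tissue RNA fewer cells of a type and less RNA per cell cannot be told apart.

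ABC proteins that carry other symbols were not among the 47. The peptide transporters Tap1 and Tap2, which load MHC class I, were lower in FULA 1 than in the urethane lung by 2.06 and 2.50, and than in the saline lung by 1.80 and 1.99. Cftr, the chloride channel of subfamily C, lay below the mark on all arrays.

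**Figure D3:**
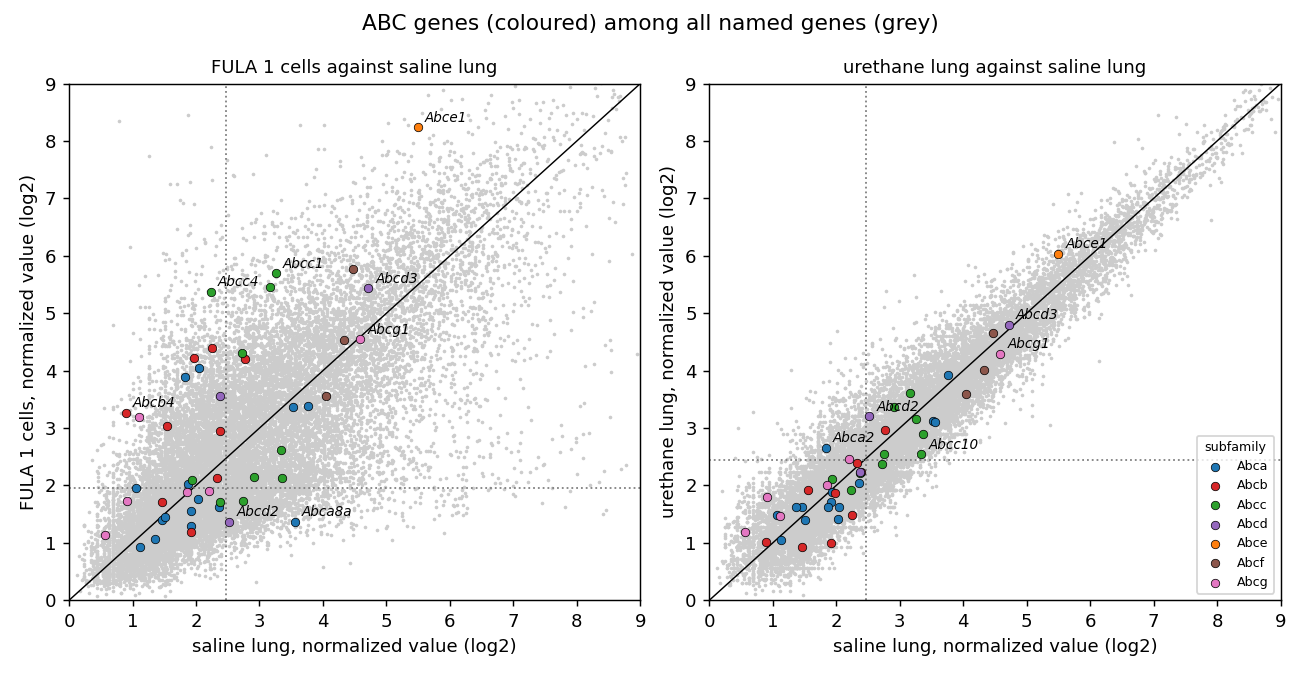
Normalized values (log2) of FULA 1 against saline lung and of urethane lung against saline lung, with the 47 ABC genes coloured by subfamily over all named genes in grey; dotted lines are the background marks and genes beyond the axis ends are not drawn. Abce1 at 8.24 and Abcc4 at 5.37 lie above the diagonal on the FULA 1 axis and Abca8a at 1.36 below it, while on the urethane axis the ABC genes stay near the diagonal.

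Between the lungs the ABC genes differed little, as did most named genes. None of the 47 was counted as higher or lower in the urethane lung, against 1.84% higher and 0.739% lower among all named genes. The median difference was -0.09 (log2, urethane minus saline), next to -0.06 over all genes. In all, 78.7% of the ABC genes lay within 0.5 of zero, against 76.2% of all named genes. This share and the median include 27 ABC genes that lay below the mark on both lungs. Of the 20 genes above the mark on at least 1 lung, 10 lay above zero and 10 below, from -0.79 to 0.82. Their median was -0.003.

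The ends of that range were Abca2 and Abcc10. Abca2 had 2.66 on the urethane lung and 1.83 on the saline lung, or 0.19 higher once the saline value is held at its mark. Abcc10, a drug efflux pump of subfamily C, had 2.54 on the urethane lung and 3.34 on the saline lung, a difference of -0.79. Abcd2 had 3.21 on the urethane lung and 2.52 on the saline lung, higher by 0.68 (1.61-fold). Abce1 was higher by 0.54, at 6.04 on the urethane lung and 5.50 on the saline lung, and Abcc8 by 0.47, at 3.37 and 2.91.

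The efflux pumps that were higher in FULA 1 differed by less than 2-fold between the lungs where they could be measured. Abcc1 had 3.16 on the urethane lung and 3.25 on the saline lung, and Abcc3 had 3.61 and 3.17. Abcb1a, Abcb1b, Abcc4 and Abcg2 were below background on each lung and are given no size there. The sterol pumps differed by 0.15 for Abca1 and -0.29 for Abcg1, and the translation factors Abcf1, Abcf2 and Abcf3 by -0.32, 0.19 and -0.45. Some marker lists moved between the lungs as well: all 8 monocyte and interstitial macrophage markers and all 6 cardiac markers lay below zero, with medians of -0.16 and -0.93. Their part in the ABC values was not tested.

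Low lung values have little resolution. On the urethane lung Abca5, Abca6, Abca15 and Abca16 shared one deposited value, 0.91, with 1277 probe sets holding it, and 17 of the 47 genes shared their value with at least 1 other probe set. On the saline lung 18 did and on FULA 1 8 did. Abcc4 and Abcb8 shared another urethane value, held by 1089 probe sets, so their separate order on that array is lost. On FULA 1 the value of Abcc6 was held by 57 probe sets and that of Abcc8 by 43.

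The calls in FULA 1 depended on the scale of the arrays, the lower ones included. Against the saline lung the split of higher and lower genes was 15 and 4 after quantile normalization. It was 20 and 2 once all medians were made equal by a shift, where 31.8% of all named genes were higher and 8.05% lower. When the other arrays took on the quantiles of FULA 1 it was 15 and 7, next to 17.5% and 18.4% of all named genes. After a lowess curve was subtracted it was 13 and 2, next to 9.93% and 13.5%. Against the urethane lung the split of 15 and 3 became 21 and 2 after the shift, with 32.3% higher and 7.02% lower among all named genes. It became 16 and 5 with FULA 1 quantiles, with 16.8% and 16.4%, and 11 and 3 after lowess, with 10.0% and 12.4%. On the deposited scale nearly all named genes passed 2-fold in favour of FULA 1 (97.4% against the urethane lung and 97.8% against the saline lung), so the 47 of 47 found there said nothing about the ABC genes. After lowess Abcb10 and Abcd4 fell under 2-fold against each lung, and Abcc9 and Abcd2 were no longer 2-fold lower than in the saline lung. Abcc1, Abcc4 and Abce1 stayed at least 2-fold higher than in each lung under every alternative run on these calls.

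**Figure D4:**
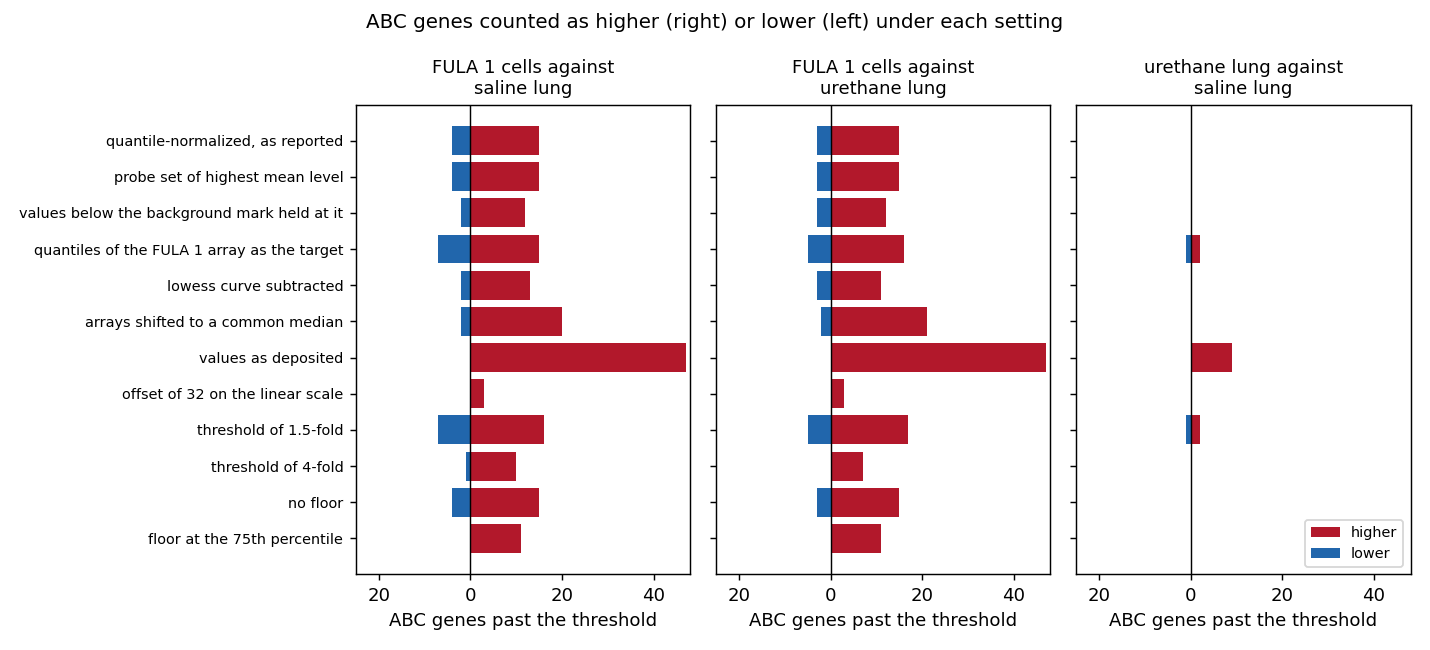
Number of ABC genes (x axis) at least 2-fold higher (right of zero) or lower (left of zero) under each processing setting, or past the other threshold where the row names one, for FULA 1 against saline lung, FULA 1 against urethane lung, and urethane lung against saline lung. The count of higher genes in FULA 1 runs from 3 with an offset of 32 to 47 with the deposited values.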

How the data were processed

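Total RNA of 3 samples, taken with Trizol and spin columns, was labelled with biotin, per the labels' protocols. For every probe set and array the authors deposited a log2 value. The submitters' processing notes name RMA, a method that corrects background, normalizes and sums probes, and the design text of the series names GeneSpring GX 12.5. The sources used here do not say which background setting was used or whether the arrays were normalized together. All 3 columns were used.

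Platform annotation gave 1 symbol to 23521 of 41345 probe sets, several to 1814 and none here to 16010. Entrez identifiers matched 23328 of them to the RefSeq table of GRCm38.p6, whose symbols were taken. Where a gene had several probe sets, they were averaged. The columns were quantile-normalized to the mean of the sorted columns, ties at their mean rank (Python 3.11.15, numpy 2.4.6, pandas 2.3.3). The procedure was run on simulated arrays with few planted differences, equal in number in both directions. FULA 1 and the lungs differ in far more genes, so that run cannot show how the scaling behaves here. No test could be made with 1 array per group, and precision is limited by the number of arrays.

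The genes and lists, 136 partner and marker entries with 125 measured, were chosen with earlier results of these data known. The naming rule took every ABC gene at least 2-fold apart or at a rank of at least 90, the ends of each subfamily, and partner genes that were at least 2-fold apart or at the end of their list. Alternatives concerned scaling, offset, threshold, floor, probe sets and background mark. RefSeq supplied promoter windows for 37 of the 47 genes.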

Additional observations from a re-analysis of the deposited data

How the results depend on the processing

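With 1 array per group depth and replicates cannot be assessed, and signal over background limits the lungs, where 19 and 18 of 47 ABC genes passed the mark on the urethane and saline lung. With the 99th percentile of olfactory receptors these counts were 8 and 9. No paired analysis was possible because each group has 1 array. Abcc1, Abcc4 and Abce1 stayed higher in FULA 1 than in each lung under every alternative run on these calls. The cause of the shifts below was not tested, beyond what each setting does by construction.

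For FULA 1 against the saline lung (15 higher, 4 lower, median 0.15), the deposited values gave 47 higher, 0 lower and a median of 5.05. There Abca8a stood at 2.62, Abcc6 at 4.15, Abcc9 at 3.91 and Abcd2 at 3.35, at least 2-fold higher as were 97.8% of all named genes, and each below the all-gene median of 4.80. The lower count was 2 with arrays shifted to a common median, 7 with FULA 1 quantiles, 2 after lowess, 7 at 1.5-fold, 1 at 4-fold, 0 with the floor at the 75th percentile and 2 with values held at the mark, where the median was -0.44. An offset of 32 gave 3 higher and 0 lower.

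For FULA 1 against the urethane lung (15 higher, 3 lower, median 0.24), the deposited values gave 47 higher, 0 lower and a median of 3.96, with Abca8a at 1.73, Abcc8 at 2.91 and Abcd2 at 1.65, again each below the all-gene median, here 3.69. The lower count was 5 with FULA 1 quantiles, 5 at 1.5-fold and 0 with the higher floor. At 4-fold 7 were higher and 0 lower, and the offset gave 3 and 0. Held at the mark the median was -0.36. The median of all genes itself moved to -0.48 against the urethane lung and -0.50 against the saline lung with values held at the mark.

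For the urethane lung against the saline lung (0 higher, 0 lower, median -0.09), the deposited values gave 9 higher and a median of 1.10. FULA 1 quantiles gave 2 higher and 1 lower, as did the threshold of 1.5-fold. With the deposited values the median of all genes was 1.09 here.

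Of the 15 genes higher than in the saline lung, 12 stayed so with values held at the mark, without Abcb4, Abcb8 and Abcg2, and 13 under median shift, FULA 1 quantiles and lowess together, without Abcb10 and Abcd4. Of the 15 higher than in the urethane lung, 12 and 11 stayed so, the 11 without Abca2, Abcb10, Abcd4 and Abcf2.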
